A study of Mus musculus with 3 samples.

Results

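Collagen chains were read in 3 myoblast lines, numbered 66, 67 and 72. The chains were taken as the protein-coding genes whose symbol has the form Col, a number, the letter a and a number, which gave 44 of 21856 protein-coding genes. Every chain was placed in 1 of 4 classes by its known type: 11 fibrillar chains, 8 chains of basement membranes, 9 FACIT chains (fibril-associated collagens whose triple helix is interrupted) and 16 others. The rule reads symbols and types only and uses no measured value.

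All 3 lines carry the genotype Dmdmdx; Pax7-nGFP with a CRISPR/Cas9 edit that corrects the mdx mutation, and they form 1 condition with n = 3. The Dmdmdx allele is a loss-of-function allele of dystrophin, and Pax7-nGFP is a nuclear green reporter driven by the Pax7 gene of satellite cells, the stem cells of muscle. The edited induced pluripotent stem cells were injected into Pax7 Cre/ERT2; Rosa26 lsl-DTA host blastocysts, in which Cre in Pax7-expressing cells switches on a toxin, and the lines were grown from satellite cells of the resulting mouse-mouse chimeras. The study sequenced myoblasts purified by fluorescence-activated cell sorting, and its satellite cell gate takes cells with Itga7 on their surface and without CD45, CD31 and SCA1, markers of blood, endothelial and stromal cells. The labels do not name the gate of these 3 lines. The labels do not say whether a line's chimera received tamoxifen, and they give neither the age nor the sex of the animals. All lines go back to the same edited stem cells, each line is 1 library, and nothing in the labels says that the lines came from separate animals, so a spread between lines is a spread between these samples.

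Collagens are secreted proteins built from 3 alpha chains wound into a triple helix, in which each chain repeats a triplet that opens with glycine. Some types hold the same chain in all positions (types II, III and VII), while others are mainly built from different chains (types I, IV, V and VI). Trimers of Col1a1 alone and of Col5a1 alone are also known. In muscle, type IV collagen forms the network of the basement membrane that covers each fiber and its satellite cells, and types I, III and V form the fibrils of the connective tissue around it. Satellite cells also make type V collagen, which signals to them through the calcitonin receptor.

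The glycine repeat could be read from the annotated coding sequences, and it is shown for the chains on which the results below turn. The stretches are the opening of the longest run of glycine codons in each chain, 20 codons 5′ to 3′ from the GENCODE M21 transcripts, with glycine codons in capitals.
Col1a1: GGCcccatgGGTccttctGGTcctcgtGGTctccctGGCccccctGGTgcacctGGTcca
Col1a2: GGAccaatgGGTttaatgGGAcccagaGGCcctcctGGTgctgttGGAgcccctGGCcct
Col3a1: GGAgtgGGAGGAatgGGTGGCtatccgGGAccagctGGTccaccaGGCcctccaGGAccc
Col4a1: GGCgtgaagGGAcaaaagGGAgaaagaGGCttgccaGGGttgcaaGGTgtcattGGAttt
Col4a2: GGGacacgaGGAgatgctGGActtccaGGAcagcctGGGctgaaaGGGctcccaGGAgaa
Col18a1: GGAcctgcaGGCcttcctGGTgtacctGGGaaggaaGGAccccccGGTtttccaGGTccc
These stretches begin at codon 168 of Col1a1-201, codon 97 of Col1a2-201, codon 164 of Col3a1-201, codon 43 of Col4a1-201, codon 777 of Col4a2-201 and codon 494 of Col18a1-202, where the number after the hyphen names the transcript. The longest run held 338, 339 and 344 triplets in Col1a1, Col1a2 and Col3a1. In Col4a1, Col4a2 and Col18a1 it held 40, 66 and 30. A triplet is a glycine codon and the next 2 codons, which may themselves encode glycine. A run of at least 10 triplets was found in 44 of 44 chains and in 54 of 21505 other protein-coding genes (0.251%). The longest run had a median of 338 triplets in the fibrillar class (216 to 344), 41 in the basement membrane class (30 to 66), 57 in the FACIT class (32 to 113) and 45 in the others (23 to 87). The map of glycine runs shows 2 runs in each of the 5 fibrillar chains drawn and many short runs in the type IV chains.

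**Figure D1:**
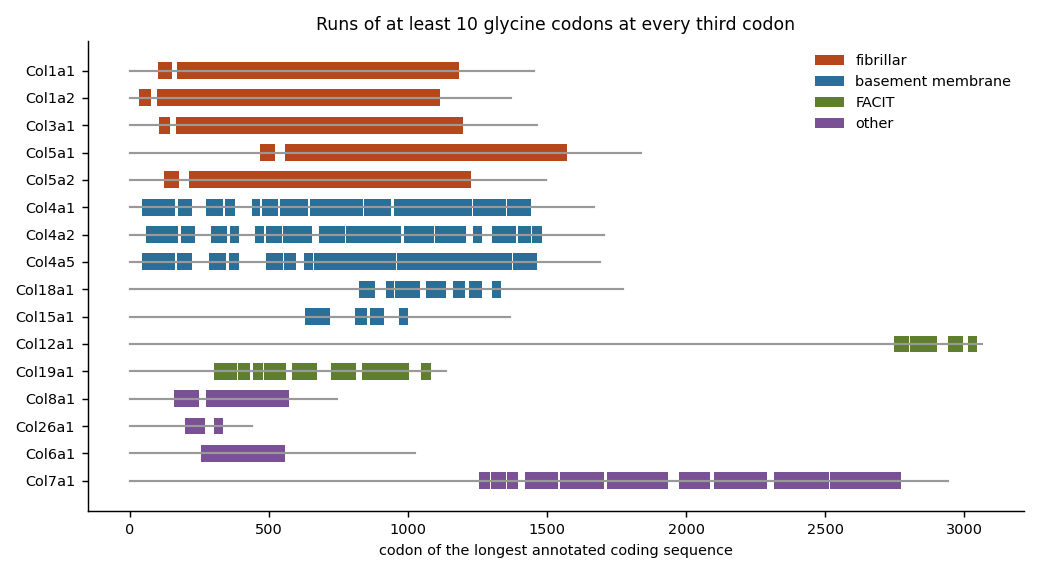
Position of runs of at least 10 triplets opened by glycine (coloured bars, by class) along the longest annotated coding sequence (grey line, in codons) of 16 chains. Col1a1, Col1a2 and Col3a1 have longest runs of 338, 339 and 344 triplets, while Col4a1 and Col4a2 are broken into 18 runs each.

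The chains were measured as TPM, the number of transcripts per 1000000 transcripts of a library after each estimated count is divided by the transcript's effective length, so that levels can be compared between genes. Values below are TPM per gene, summed over the transcripts of the gene, unless counts are named. Total estimated counts lay between 66972426 and 73274315 per library, and 3 counts, the number that a count of 0 allows, were taken as the limit of detection, which covers counting error only. Of the 44 chains, 38 were above that limit in every line (86.4%, against 67.8% of protein-coding genes), 41 were above it in at least 1 line (93.2%, against 74.1%), and Col9a1, Col28a1 and Col6a5 were at or under it in every line. At least 1 TPM in every line was reached by 19 chains (43.2%), against 51.9% of protein-coding genes. At least 10 TPM in every line was reached by 8 chains (18.2%), against 36.3%. The median level, as log2(TPM + 1), was 0.71 ± 0.22 for the chains (SD, n = 3) and 1.60 ± 0.06 for protein-coding genes.

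The labelled cell type was checked with marker lists. All 6 myoblast markers (Pax7, Myf5, Myod1, Des, Cdh15 and Itga7) had at least 10 TPM in every line, with a summed level between 1809 and 1977 TPM. The 8 fibroblast or fibro-adipogenic markers, of which 2 had at least 1 TPM in every line, summed to 9.20, 6.88 and 18.0 TPM in lines 66, 67 and 72, with Lum and Dpt at 0 counts in every line, Dcn at 4 counts at most and Cd34 at 2.68, 1.45 and 13.8 TPM. The 4 pericyte or smooth muscle markers, 2 of them at 1 TPM or more, summed to 357, 139 and 174 TPM, nearly all of it Rgs5, with Kcnj8 at 1 count at most. The 4 tenocyte markers, 2 of them at 1 TPM or more, summed to between 46.9 and 48.8 TPM, most of it Scx. Endothelial (0 of 5 markers at 1 TPM or more in every line), immune (1 of 4), Schwann (1 of 4) and chondrocyte (0 of 5) lists each summed to 4.31 TPM or less in every line, with Adgre1 and Chad at 0 counts in every line, Emcn at 2 counts at most, and Sox10 and Acan at 1 count at most. Whole-chromosome differences between lines were also measured, as the log2 of a line over the average of the remaining lines, taken as the median of the chromosome's genes that averaged 10 TPM or more. On the chromosomes that hold a chain, the largest shifts up were 0.33 for chromosome 11 and 0.29 for chromosome 10 in line 66 and 0.16 for chromosome 6 in line 72. The largest shifts down were on the same chromosomes, -0.20 for chromosome 11 in line 67 and -0.19 for chromosome 10 in line 72. In bulk RNA, fewer cells of a type and less RNA per cell cannot be told apart.

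A handful of chains carried nearly all of the collagen RNA. The 44 chains summed to 1216, 1100 and 1390 TPM in lines 66, 67 and 72, a mean of 1236 ± 146 TPM (SD, n = 3). Col18a1 and Col4a1 together held 53.3% ± 6.38 of this sum, and the 10 highest chains held 96.7% ± 0.417. The basement membrane class held 60.6% ± 7.34, the fibrillar class 31.5% ± 7.14, the other chains 5.73% ± 0.327 and the FACIT class 2.11% ± 0.741. In line 66 the basement membrane share was 69.1%, above the 56.6% and 56.2% of lines 67 and 72, and the fibrillar share was 23.3%, below 34.8% and 36.4%. With types XV and XVIII placed among the others, the type IV chains alone held 29.7% ± 4.18, a difference from the fibrillar share within the spread. Without Col18a1 and Col15a1 the type IV sum was above the fibrillar sum in line 66 (420 against 284 TPM) and below it in lines 67 (299 against 383) and 72 (381 against 506). As classed here, the basement membrane sum was above the fibrillar sum in 3 of 3 lines (840, 622 and 781 TPM against 284, 383 and 506).

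**Figure D2:**
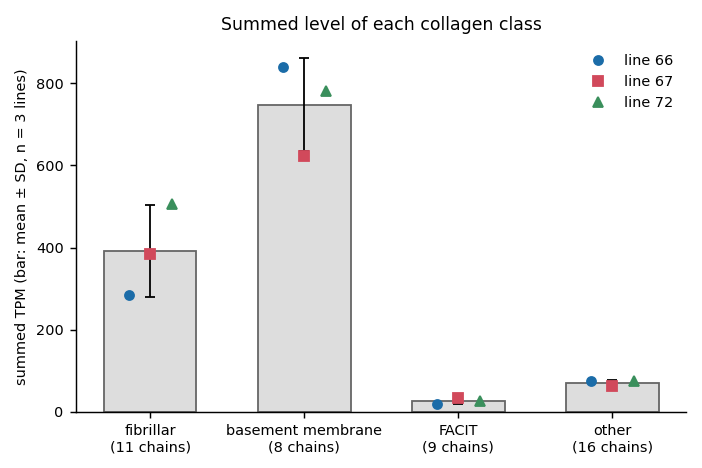
Summed TPM of each collagen class (bars, mean ± SD over 3 lines, points are single lines). The basement membrane class stands at 748 ± 113 TPM and the fibrillar class at 391 ± 111 TPM, and the basement membrane sum is the higher of these 2 in every line.

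The highest RNA level of any single chain was that of Col18a1. Together the 6 type IV chains came close to that level, at 420, 299 and 381 TPM in lines 66, 67 and 72. Col18a1 (ENSMUSG00000001435, GRCm38 chromosome 10, 77052178 to 77166548, minus strand) encodes the chain of a basement membrane proteoglycan whose end fragment is endostatin. It stood at 420, 321 and 397 TPM in lines 66, 67 and 72 (380 ± 51.7, SD, n = 3), and it ranked 374 of 21856 protein-coding genes. Line 67 was the lowest, and the lines lay within 1.31-fold of each other. The gene lies on chromosome 10, whose genes were shifted up by 0.29 on the log2 scale in line 66 and down by 0.19 in line 72. The part of these shifts in its values was not tested. Its short isoform starts from an outer promoter and its longer isoforms, a prominent product of liver, start from an inner one 52.8 kb away. The short form, Col18a1-202, held 97.9% of the gene's estimated counts, 109382, 73405 and 95995 in the 3 lines. The inner-start transcripts Col18a1-201 and Col18a1-203 held at most 191 and 150 counts. The reads of this gene were therefore assigned almost wholly to the isoform of the outer start.

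Type IV, the network former of basement membranes, was represented by its ubiquitous pair. Col4a1 (ENSMUSG00000031502, chromosome 8, 11198423 to 11312826, minus strand) stood at 317, 224 and 292 TPM (278 ± 47.7). Col4a2 (ENSMUSG00000031503, chromosome 8, 11312805 to 11449287, plus strand) stood at 99.9, 71.5 and 86.0 TPM (85.8 ± 14.2). Both were lowest in line 67 and highest in line 66. Col4a5, a chain of the specialised networks of kidney and smooth muscle, stood at 3.07, 2.89 and 3.32 TPM (3.09 ± 0.218). Its partners were far lower, with Col4a6 at 0.133, 0.114 and 0.0848 TPM and Col4a4 at 0.0108, 0.0215 and 0.0158 TPM. Col4a3 had 5, 3 and 3 counts, at the limit in lines 67 and 72. Col15a1, the basement membrane relative of Col18a1, stood at 0.0538, 1.88 and 3.45 TPM, with 14 counts in line 66 against 146 and 427.

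Among fibrillar chains, types III and V led. Col3a1 (ENSMUSG00000026043, chromosome 1, 45311538 to 45349706, plus strand), the only chain of type III collagen, stood at 145, 205 and 270 TPM (207 ± 62.3). Col5a2 (ENSMUSG00000026042, chromosome 1, 45374321 to 45503282, minus strand), a chain of the type V collagen that sets fibril diameter, stood at 90.6, 110 and 134 TPM (112 ± 21.8). Both were lowest in line 66 and highest in line 72. Col5a1, its partner, stood at 34.8, 34.1 and 52.1 TPM (40.3 ± 10.2). Col5a3, an alternative chain of type V, stood at 1.73, 3.16 and 7.55 TPM (4.15 ± 3.03). Col1a2 (ENSMUSG00000029661, chromosome 6, 4504814 to 4541544, plus strand), the second chain of type I collagen, stood at 7.47, 28.3 and 37.0 TPM (24.3 ± 15.2). Its partner Col1a1 (ENSMUSG00000001506, chromosome 11, 94936224 to 94953042, plus strand), the chain that makes up most of type I collagen, stood at 0.311, 0.103 and 0.193 TPM (0.202 ± 0.104). Its mean was close to those of the cartilage chains Col2a1 (0.300 ± 0.179 TPM) and Col11a1 (0.267 ± 0.0455), whose lines overlapped those of Col1a1, and Col11a2 stood at 0.646 ± 0.405 TPM. The order among Col1a1, Col2a1 and Col11a1 lay within this spread and changed with the measure, since Col11a1 was the lowest as counts per kilobase of the leading transcript (11.0 against 12.8 for Col1a1).

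FACIT and other chains were mostly low. Col12a1, which binds the surface of type I fibrils, stood at 4.77, 18.2 and 14.3 TPM (12.4 ± 6.92), with line 66 the lowest. Col19a1, a chain found at basement membrane zones and in muscle development, stood at 6.80, 10.6 and 7.39 TPM (8.28 ± 2.06). About equal parts of its counts went to coding transcripts and to Col19a1-203, a processed transcript without a coding sequence (53.1% of counts). Col8a1, a short chain of network-forming type VIII, stood at 33.4, 25.4 and 31.6 TPM (30.1 ± 4.21). Its sister chain Col8a2 had 14, 9 and 12 counts. Col26a1 stood at 26.6, 27.6 and 24.4 TPM (26.2 ± 1.64), with the smallest spread of the 10 highest chains (1.13-fold). Col6a1, 1 of the 3 main chains of the microfibrillar type VI, stood at 2.10, 1.97 and 6.31 TPM (3.46 ± 2.47). Col6a2 stood at 0.0978, 0.159 and 0.560 TPM and Col6a3 at 0.398, 0.167 and 1.17 TPM. All 3 type VI chains were highest in line 72. Col7a1, the chain of anchoring fibrils, stood at 7.47, 3.49 and 4.84 TPM. The 24 chains with a mean under 1 TPM ranged from 0.00220 to 0.808 TPM.

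**Figure D3:**
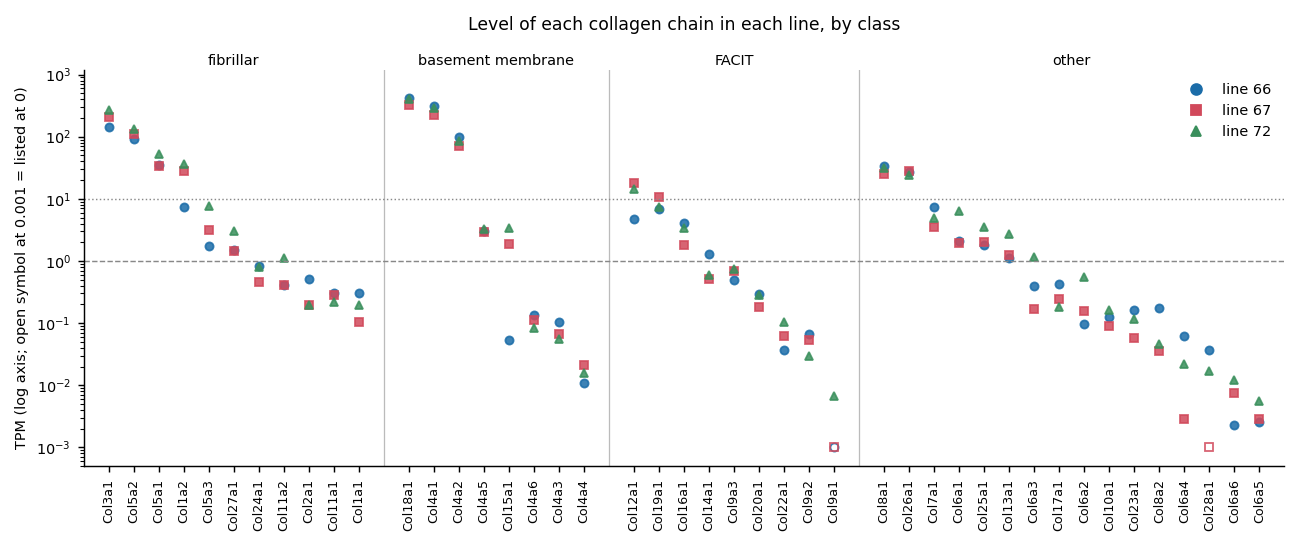
TPM of each of the 44 chains in each line (log axis, 1 symbol per line, chains ordered by mean within a class, dashed line at 1 TPM, dotted line at 10 TPM, open symbols listed at 0). Col18a1, Col4a1 and Col3a1 have 145 TPM or more in every line, and Col1a1 lies below 1 TPM in every line while Col1a2 lies above it.

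Neighbours in the order of levels did not all differ beyond their spread. Col18a1 was above Col4a1, Col4a1 above Col3a1 and Col3a1 above Col5a2 in 3 of 3 lines. Col5a2 and Col4a2 changed places, with Col4a2 the higher in line 66 (99.9 against 90.6 TPM). Col8a1 and Col26a1 did so in line 67, and the lines of Col1a2 spanned those of Col26a1. Part of the order rests on short transcripts. Col4a1-204 (416 bases) and Col4a1-207 (618 bases), neither of them of the protein-coding biotype, held 21.9% and 22.1% of the TPM of Col4a1 with 1.45% and 2.94% of its counts. Col3a1-207 (431 bases) and Col3a1-205 (737 bases) held 27.2% and 25.6% of the TPM of Col3a1 with 2.78% and 4.32% of its counts. On the leading transcript alone, the coding transcript with the most counts, Col18a1-202 stood at 321 ± 52.2 TPM, Col4a1-201 at 120 ± 22.7, Col5a2-201 at 109 ± 20.6, Col3a1-201 at 96.0 ± 23.4 and Col4a2-201 at 79.7 ± 12.4. On that measure Col18a1 remained the highest in every line. Col4a1 and Col5a2 changed places, with Col4a1 the higher in line 66 (140 against 89.2 TPM) and Col5a2 in lines 67 (109 against 95.0) and 72 (130 against 125). Col3a1 was above Col4a1 in line 67 (97.9 against 95.0 TPM), and Col5a2 was above Col3a1 in 3 of 3 lines (89.2, 109 and 130 against 71.8, 97.9 and 118 TPM). Col26a1-202 stood at 7.12 ± 0.57 TPM, since Col26a1-204 (280 bases) held 47.1% of the gene's TPM with 3.62% of its counts.

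Chains that assemble together were then compared within each library. Of 18 pairs, 15 had both chains above the limit in every line. The 3 others were Col4a3 with Col4a4 and Col9a1 with Col9a2 or Col9a3. In 14 of the 15 pairs the same chain was the higher in 3 of 3 lines. A two-sided exact sign-flip test over 3 lines cannot go below p = 0.25, the value of each of these 14 pairs (0.268 after Benjamini-Hochberg adjustment over the 15 pairs), so the sizes and their spread are the result.

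In type I the minor chain of the trimer was the higher in RNA. The usual trimer takes 2 chains of Col1a1 for 1 of Col1a2, yet Col1a2 exceeded Col1a1 by 24.1-fold in line 66, 275-fold in line 67 and 192-fold in line 72. The mean log2 ratio of Col1a1 to Col1a2 was -6.76 ± 1.90 (SD, n = 3), a geometric mean of 108-fold. Without line 66 this fold was 230, without line 67 it was 67.9 and without line 72 it was 81.4, so its size depended on which lines entered while its direction did not. In counts, Col1a1 had 119, 37 and 71 and Col1a2 had 2161, 7389 and 10283. In line 66 Col1a1 was at its highest and Col1a2 at its lowest, while both were higher in line 72 than in line 67. Chromosome 11, which holds Col1a1, was shifted up by 0.33 in line 66, and chromosome 6, which holds Col1a2, was shifted up by 0.16 in line 72 and down by 0.11 in line 66. The part of these shifts in the ratios was not tested. The estimated counts of both chains were whole to within 0.05 in every line, as were those of 35 of the 44 chains, so no visible part of a read was split with another gene.

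The ubiquitous type IV pair stayed in a nearly fixed ratio. Col4a1 exceeded Col4a2 by 3.17-, 3.14- and 3.39-fold, a log2 ratio of 1.69 ± 0.06, while the log2 level of each chain alone had an SD of 0.26 and 0.24 between lines. The trimer takes 2 chains of Col4a1 for 1 of Col4a2. On leading transcripts the ratio was 1.51-, 1.41- and 1.58-fold, and as counts per kilobase of those transcripts it was 1.67-, 1.61- and 1.75-fold. These last values lie below 2-fold in every line and those over all transcripts lie above it, so on which side of the 2 to 1 trimer the ratio falls depends on how the short transcripts are treated. Its narrow spread did not. Nor was a steady ratio particular to chains that assemble together. As the log2 of a line over the average of the remaining lines, Col18a1 stood at 0.23, -0.35 and 0.10. Col8a1, which is not its partner, stood at 0.23, -0.36 and 0.10. For 5 of the 15 pairs the log2 ratio varied less between lines than either chain did. These were Col4a1/Col4a2, Col5a1/Col5a2 and the overlapping pairs among Col6a1, Col6a2 and Col6a3, and no share over other gene pairs was computed.

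Type V was inverted relative to its main trimer. The main form takes 2 chains of Col5a1 for 1 of Col5a2, and Col5a2 exceeded Col5a1 by 2.61-, 3.24- and 2.57-fold (log2 ratio of Col5a1 to Col5a2 -1.48 ± 0.19). As counts per kilobase of the leading transcript Col5a2 was still the higher, by a geometric mean of 2.27-fold. Col5a3, which replaces a chain in another form, was below Col5a1 by a geometric mean of 11.4-fold (log2 ratio of Col5a1 to Col5a3 3.52 ± 0.77) and below Col5a2 by 31.9-fold (4.99 ± 0.79). It came closest to its partners in line 72, where the folds were 6.91 and 17.8.

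Type VI was led by a single chain. Col6a1 exceeded Col6a2 by 21.5-, 12.4- and 11.3-fold (log2 ratio 3.85 ± 0.50) and Col6a3 by 5.28-, 11.8- and 5.41-fold (2.80 ± 0.66), while the basic unit takes 1 of each. For Col6a3 this rested on Col6a3-206, a 646-base retained intron that held 85.9% of its TPM with 24.7% of its counts, and per kilobase of the leading transcript Col6a1 was the higher by a geometric mean of 42.9-fold. The order of Col6a2 and Col6a3 turned with that choice, from a log2 ratio of -1.05 ± 0.98 to 1.75 ± 0.41. Col6a1 and Col6a2 both lie on chromosome 10, which was shifted up by 0.29 in line 66 and down by 0.19 in line 72. The part of these shifts in their values was not tested.

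Col4a5 exceeded Col4a6 by 23.1-, 25.3- and 39.2-fold and Col4a4 by 283-, 134- and 210-fold, with Col4a4 at 6, 11 and 8.34 counts. Col8a1 exceeded Col8a2 by 188-, 711- and 677-fold, with Col8a2 at 14 counts or fewer. The lower fold of line 66 rested on Col8a2-202, a 343-base transcript that held 73.7% of the gene's TPM there with 1.47 counts, and on leading transcripts the folds were 715, 708 and 676. Col5a2 exceeded Col11a1, with which it can form hybrid trimers, by 299-, 393- and 621-fold. Col9a2 was below Col9a3 by 7.56-, 12.6- and 25.1-fold, both of them under 1 TPM and Col9a2 at 12, 8 and 4 counts. The geometric mean of 13.4-fold over all transcripts was 6.51-fold on leading transcripts and 8.00-fold as counts per kilobase of them. For the type XI chains, Col11a1 was below Col11a2 by 1.36-, 1.47- and 5.16-fold over all transcripts. On leading transcripts this order turned in every line, with Col11a1 the higher by 2.29-, 1.10- and 1.37-fold, but as counts per kilobase of those transcripts Col11a2 stayed the higher, by a geometric mean of 1.91-fold. The counts of Col11a2 were split between Col11a2-204 (39.1, 68.8 and 41.1), its leading transcript, and Col11a2-201 (51.5, 43.7 and 28.4). Col11a1 and Col2a1 were the 1 pair without a common direction (ratios 0.599, 1.45 and 1.09).

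**Figure D4:**
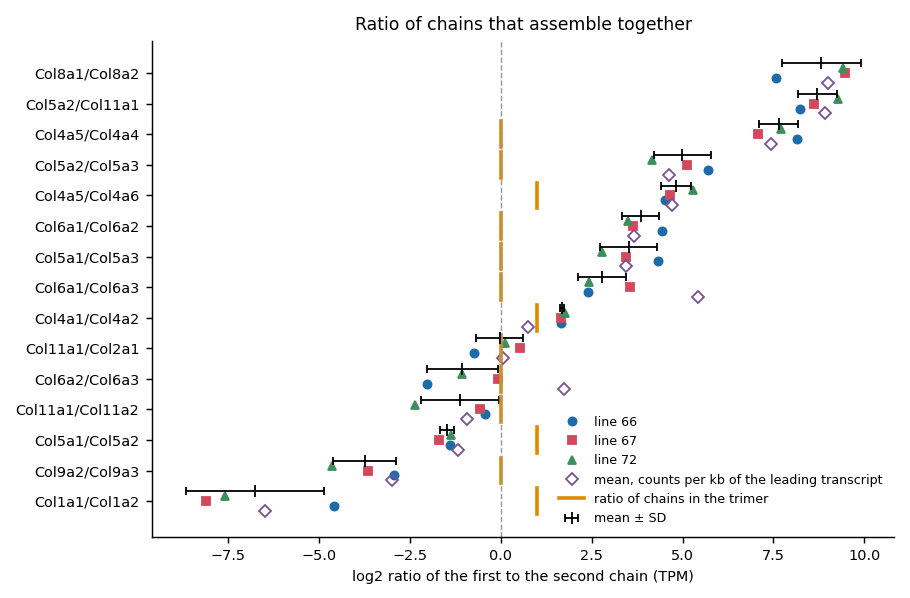
Log2 ratio of the first to the second chain of 15 pairs (points are single lines, black bars the mean ± SD of 3 lines on TPM, diamonds the mean as counts per kilobase of the leading transcript, orange marks the ratio in the trimer where it is fixed). Col1a1/Col1a2 lies at -6.76 ± 1.90 against an orange mark on the other side of 0, and Col4a1/Col4a2 has the shortest bar (1.69 ± 0.06).

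Lines were then compared chain by chain, as the highest over the lowest line, for the 20 chains with a mean of at least 1 TPM. More than 2-fold apart were 9 of 20 chains (45.0%), against 6.64% of 11714 protein-coding genes under the same filter. The median span was 1.89-fold for the chains and 1.22-fold for those genes. Among chains averaging 10 TPM or more, 2 of 10 were over 2-fold apart, against 2.35% of genes, and among chains with a mean of 1 to 10 TPM it was 7 of 10, against 17.1%. On coding transcripts alone, and on leading transcripts alone, 6 chains were over 2-fold apart, and no share of genes was computed for these. Each line is 1 library, so these spans have no replicate and no test.

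Line 72 was the highest for 6 of the 9 chains: Col1a2 (4.95-fold over the lowest line), Col5a3 (4.35-fold), Col6a1 (3.20-fold), Col13a1 (2.41-fold), Col27a1 (2.15-fold) and Col15a1 (64.1-fold in TPM and 30.5-fold in counts). Col15a1 passed the filter on the mean only through lines 67 and 72, with 0.0538 TPM and 14 counts in line 66. For comparison, of the 778 protein-coding genes over 2-fold apart under the same filter, 307 were highest in line 72 (2.62% of all 11714). Line 66 was the highest for Col7a1 (2.14-fold) and Col16a1 (2.31-fold), against 308 of the 778 genes (2.63% of all 11714). Line 67 was the highest for Col12a1 (3.82-fold), against 163 of the 778 genes (1.39% of all 11714). For Col16a1 the counts put line 72 first (500, 293 and 588), so its order depended on the scale. Markers of other cell types also differed between lines, without a common direction within a list. Among the fibroblast or fibro-adipogenic markers, Cd34 was highest in line 72 (13.8 TPM against 2.68 and 1.45), Twist2 was highest in line 66 and lowest in line 72 (2.97, 1.73 and 0.449 TPM), Pdgfra stood at 0.454, 0.378 and 0.387 TPM and Ly6a at 2.97, 3.31 and 3.26 TPM. Among the pericyte or smooth muscle markers, Rgs5 was highest in line 66 (356 TPM against 137 and 172) and Abcc9 lowest there (1.12, 1.26 and 1.68 TPM). Their part in the differences between lines was not tested. Without line 66 the count over 2-fold apart was 4 of 20 chains, against 3.18% of genes between the same lines. Without line 72 it was 4 of 19, against 3.52%, and without line 67 it was 7 of 20, against 4.08%.

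The 8 chains with the highest means each spanned less than 2-fold. Col18a1, Col4a1, Col4a2 and Col8a1 spanned 1.31-, 1.41-, 1.40- and 1.32-fold, each with line 66 the highest and line 67 the lowest. Col3a1, Col5a2 and Col5a1 spanned 1.86-, 1.48- and 1.53-fold, each with line 72 the highest. Over the 20 chains, line 72 was the highest for 11 (44.6% of protein-coding genes under the same filter), line 66 for 6 (29.9%) and line 67 for 3 (25.5%). Line 67 was the lowest for 10 chains (34.6% of genes), line 66 for 9 (44.8%) and line 72 for 1, Col26a1 (20.6%).

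**Figure D5:**
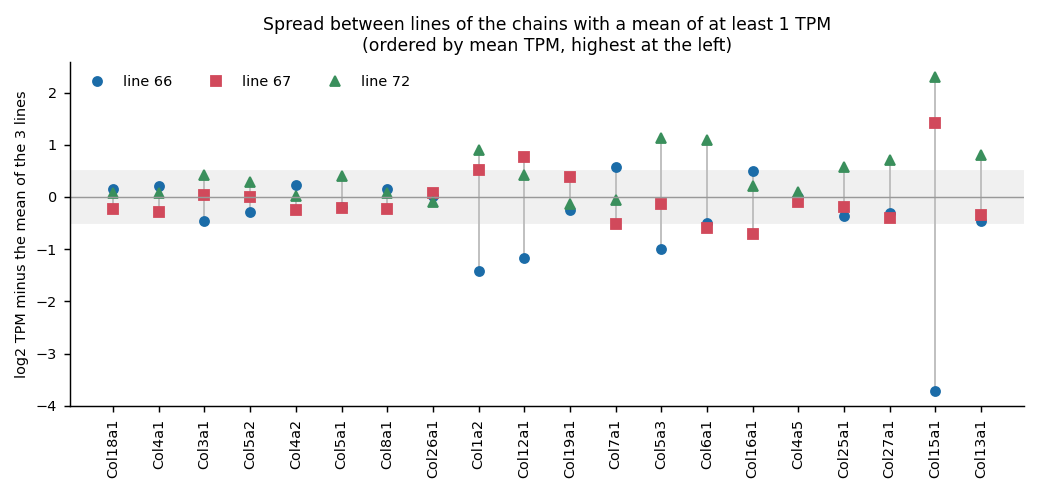
Log2 TPM of each line minus the mean of the 3 lines (points, grey bars join the lowest and the highest line) for the 20 chains with a mean of at least 1 TPM, ordered by mean level, with a grey band from -0.5 to 0.5. The 8 chains with the highest means lie inside the band, while Col15a1, with 14 counts in line 66, spans 64.1-fold.

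Where chain genes lie next to each other, their levels were set side by side. Col4a1 and Col4a2 are transcribed away from each other, and their annotated first exons overlap by 22 bases, shown here on the plus strand.
Overlap of Col4a1 and Col4a2, chr8:11312805-11312826 (GRCm38.p6): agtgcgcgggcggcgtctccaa
This overlap is shorter than the words of 31 bases by which transcripts were compared here. Of these words, 99.9% for Col4a1 and 99.8% for Col4a2 occurred in no other gene of the listed transcripts. The estimated counts of both genes were whole to within 0.05 in every line. The strand setting of the counting is not given in the sources used here, and the part of the overlap in the counts was not tested. Col4a3 and Col4a4 face away from each other in the same way with 71 bases between them, and both were near the limit. Col4a5 and Col4a6 do so with 1.31 kb between them, and their means were 3.09 and 0.111 TPM. Col3a1 and Col5a2 lie tail to tail 24.6 kb apart and were both at 90.6 TPM or more in every line. Col9a1 and Col19a1 lie tail to tail 9.21 kb apart with means of 0.00220 and 8.28 TPM. Adjacent chains thus included pairs of similar and of very different levels.

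Promoters are shown for Col18a1, the highest chain, Col3a1, the highest fibrillar chain by TPM over all transcripts, and Col1a2, the chain above 10 TPM with the largest span between lines. They come from the RefSeq table (GRCm38.p6), which had 38 promoters for 35 of the 44 chains. Each runs 5′ to 3′ on the strand of its gene within the 250 bases before the start, without bases of annotated exons, and capitals mark the TATA box letters TATAAA, the CAAT box letters CCAAT, the GC box letters GGGCGG and the E box letters CAGCTG on either strand.
Col18a1, chr10:77166549-77166780, minus strand: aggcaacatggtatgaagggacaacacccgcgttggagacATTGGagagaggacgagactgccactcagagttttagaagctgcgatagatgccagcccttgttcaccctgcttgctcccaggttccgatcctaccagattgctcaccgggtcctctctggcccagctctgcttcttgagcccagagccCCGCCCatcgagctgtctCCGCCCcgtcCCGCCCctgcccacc
Col3a1, chr1:45311288-45311537, plus strand: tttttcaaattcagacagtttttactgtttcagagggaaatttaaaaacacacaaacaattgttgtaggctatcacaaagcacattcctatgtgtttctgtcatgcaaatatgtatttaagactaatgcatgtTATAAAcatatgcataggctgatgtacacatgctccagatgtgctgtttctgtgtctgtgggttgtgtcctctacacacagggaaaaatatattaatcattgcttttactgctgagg
Col1a2, chr6:4505370-4505492, plus strand: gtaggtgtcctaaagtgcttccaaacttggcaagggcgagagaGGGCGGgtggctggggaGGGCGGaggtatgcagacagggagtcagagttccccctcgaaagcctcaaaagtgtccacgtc
Col18a1 holds GGGCGG 3 times and CCAAT a single time in this stretch, all on the opposite strand, with 11 CpG dinucleotides. Col1a2 holds GGGCGG 2 times in the 123 bases shown, which end 126 bases before the start, and CCAAT occurs in the part of its window that is not shown. Col3a1 holds TATAAA and no CpG. Within 250 bases before the start, GGGCGG was present in 22 of 38 chain promoters (57.9%) against 32.7% of all 32851 promoters. These letters contain a CpG, and chain promoters held a median of 9.5 CpG in that window against 6 for all promoters. The part of this difference in the GGGCGG share was not tested. CCAAT was present in 34.2% against 33.8%, TATAAA in 13.2% against 12.4%, and CAGCTG, which reads the same on both strands, in 15.8% against 13.0%. None of the 4 motifs contains another. A match describes the letters of the window only.

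Genes for the modification and folding of collagen were mostly expressed, and those for cleavage and cross-linking in smaller shares. Of 35 genes for modification, folding, cleavage and cross-linking of collagen, 28 had at least 1 TPM in every line (80.0%), against 51.9% of protein-coding genes, and 21 had at least 10 TPM, against 36.3%. Prolyl and lysyl modification, which stabilises the helix, had 14 of 15 genes at 1 TPM or more. Ppib, a proline isomerase of the prolyl 3-hydroxylase complex, stood at 458, 440 and 506 TPM, P4hb, a subunit of prolyl 4-hydroxylase, at 451, 348 and 387 TPM, and P3h4 at 62.8, 52.5 and 60.5 TPM. Colgalt2 was at 1 count at most. Folding and secretion had 7 of 7 genes at 1 TPM or more. Serpinh1, the collagen chaperone HSP47, stood at 709, 596 and 703 TPM (669 ± 63.7), above every chain in every line, followed by Fkbp10 (143 ± 24.9) and Kdelr2 (115 ± 5.42).

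Genes for the steps outside the cell made up the other 2 lists. Cleavage of propeptides had 4 of 8 genes at 1 TPM or more in every line (against 51.9% of protein-coding genes) and the same 4 at 10 TPM or more (against 36.3%), led by Pcolce, an enhancer of the C-proteinase, at 94.4, 143 and 115 TPM, Adamts14, an N-proteinase, at 77.6, 42.3 and 64.4 TPM, and Pcolce2 at 50.8, 31.1 and 73.0 TPM. Cross-linking had 3 of 5 at 1 TPM or more and 1 of 5 at 10 TPM or more, against the same 51.9% and 36.3%, led by Loxl3 at 25.3 ± 14.4 TPM with line 66 the highest (41.9), Loxl1 at 7.99, 13.6 and 9.69 TPM and Lox, the founding lysyl oxidase, at 1.85, 2.21 and 2.36 TPM. Over 2-fold apart between lines were 4 of the 30 genes of these lists with a mean of at least 1 TPM (13.3%, against 6.64%). They were Pcolce2 (2.34-fold), Adamts2 (5.15-fold), Loxl3 (2.62-fold) and Loxl2 (3.10-fold). None belonged to the lists for modification or folding.

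Of 13 collagen receptors, 6 had at least 1 TPM in every line (46.2%, against 51.9%). Itgb1, the shared beta chain of the collagen-binding integrins, stood at 350, 373 and 384 TPM, Ddr1, a receptor tyrosine kinase for collagens, at 114, 120 and 126 TPM, and Ddr2, its fibrillar collagen relative, at 69.8, 73.5 and 75.3 TPM. The integrin alpha chains that pair with Itgb1 for collagen were under 1 TPM: Itga1 at 0.181 ± 0.0162, Itga2 at 0.0449 ± 0.0190, Itga10 at 0.676 ± 0.203 and Itga11 at 0.0214 ± 0.00473 TPM. Calcr, the calcitonin receptor through which type V collagen acts on satellite cells, had 1, 0 and 3 counts, while the type V chains Col5a1 and Col5a2 were at 34.1 TPM or more in every line. Of 8 proteoglycans that bind fibrils, Bgn (22.7 ± 7.33 TPM) and Ogn (18.7 ± 2.72 TPM) had at least 1 TPM in every line (against 51.9% of protein-coding genes), followed by Aspn at 0.222 ± 0.153 TPM. Lum, Kera and Prelp had 0 counts in every line, which allows up to 3 counts, and Fmod had at most 3.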

How the data were processed

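RNA-seq of 3 myoblast lines was used, with n = 3 and the line as replicate. Poly-A libraries were stranded. The authors deposited estimated counts per transcript, not normalized, and TPM values, divided by effective length and scaled to 1000000 per library. The submitters' processing notes name bcl2fastq 2.20, fastp 0.20, kallisto 0.46.1 and GRCm39; the strand setting is not given in the sources used here. Transcripts were matched by identifier to GENCODE M21 (GRCm38), whose coordinates are printed. Of 121798 transcripts, 120686 matched, and the 1112 others (0.493% to 0.535% of counts) were left out. Summing a gene's transcripts lets short partial transcripts raise its TPM.

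Totals were 73274315, 66972426 and 70272367 estimated counts in lines 66, 67 and 72. Members and lists were chosen with earlier results of these data known. Per-line values were given for chains with a mean of at least 10 TPM and for paired chains with at least 1 chain at a mean of 1 TPM, and for the 3 highest genes of each list, with those at or under 3 counts. Marker lists are given by their sums and defining genes. The values of other chains were added after being seen. No protein table was used here, so glycine was read from the coding sequences. Ratios were tested with an exact sign-flip test. The functions were tested on simulated data. Alternatives were CPM, coding or leading transcripts, thresholds, pseudocounts (0.1 and 1), leaving out each line, edgeR 4.0.16 TMM and DESeq2 1.42.0 size factors on rounded counts. Python 3.11.15, numpy 2.4.6, pandas 2.3.3, matplotlib 3.10.9 and R 4.3.3 were used.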

Additional observations from a re-analysis of the deposited data

How the results depend on the processing

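Of 184 values recomputed under alternatives, 136 stayed within the spread between lines or within 1.5 times the count, 39 moved further and 9 changed sign. No paired analysis was possible because the 3 lines form a single group. Leaving out each line gave between 4 (without line 66 or line 72) and 7 chains over 2-fold apart, against 9 with all lines, and a log2 ratio of Col11a1 to Col2a1 between -0.31 and 0.33. The count was 2 at a mean of at least 10 TPM, 20 with more than 3 counts in every line as the filter and 3 at a fold threshold of 4. The other alternatives for it stayed within 1.5 times. They gave 13 chains at a threshold of 1.5, 12 with CPM, 8 with TMM and 8 with DESeq2 size factors. Coding transcripts gave 6 and leading transcripts 6, at the edge of that range. With CPM in place of TPM the median of log2(CPM + 1) was 1.54, the sum 4081 CPM, the share of the other class 4.0%, and the log2 ratio 0.78 for Col4a1/Col4a2, 6.81 for Col4a5/Col4a4, -0.84 for Col5a1/Col5a2 and 4.29 for Col6a1/Col6a3, with 0.56 for Col6a2/Col6a3 and 0.65 for Col11a1/Col2a1 reversed. Protein-coding transcripts alone gave a sum of 1005 TPM, 4.79% in the other class, and 0.90 for Col4a1/Col4a2, 5.82 for Col6a1/Col6a3, -2.85 for Col9a2/Col9a3, 1.97 for Col6a2/Col6a3 and 0.43 for Col11a1/Col2a1, the last 2 reversed. A pseudocount of 0.1 moved the median to -0.48. With types XV and XVIII counted as other, the basement membrane share was 29.7% and the other share 36.7%. Adding 1 TPM to both chains pulled the ratios toward 0, to -4.14 for Col1a1/Col1a2, -0.64 for Col9a2/Col9a3, 2.01 for Col4a5/Col4a4, 1.88 for Col4a5/Col4a6, 1.69 for Col6a1/Col6a2, 1.42 for Col6a1/Col6a3, 4.83 for Col8a1/Col8a2 and 6.46 for Col5a2/Col11a1.

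The alternatives on leading transcripts were chosen after seeing the data. Their TPM summed to 854, with 5.26% in the other class, and the log2 ratio was 0.58 for Col4a1/Col4a2, 6.48 for Col4a5/Col4a4, 3.81 for Col4a5/Col4a6, 4.53 for Col6a1/Col6a2, -2.70 for Col9a2/Col9a3 and 6.13 for Col6a1/Col6a3, with 1.59 for Col6a2/Col6a3 and 0.60 for Col11a1/Col11a2 reversed. It gave no value for Col11a1/Col2a1, whose leading Col2a1 transcript fell to the limit. Counts per kilobase of the leading transcript gave 0.75 for Col4a1/Col4a2, -1.19 for Col5a1/Col5a2 and 5.42 for Col6a1/Col6a3, with 1.75 for Col6a2/Col6a3 and 0.060 for Col11a1/Col2a1 reversed. Leading and coding transcripts leave out the TPM of other, mostly short transcripts, CPM drops the division by length, and the cause of the other moves was not tested. The depth sets a limit of 3 counts, at or under which 3 chains lay in every line. Counts under 20, as for Col8a2, Col4a3, Col4a4 and Col9a2, carry a wide counting error.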
